A study of Homo sapiens with 4 samples.

Results

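The genes described here encode glycosyltransferases of the Golgi apparatus, the enzymes that build the sugar chains of glycoproteins and glycolipids one sugar at a time. They were taken by symbol, as all B3GNT, B4GALT, B3GALT, GALNT, FUT, ST3GAL, ST6GAL (with ST6GALNAC), MGAT and GCNT genes, without FUT pseudogenes and GALNT antisense genes. This gave 76 of the 18132 genes that had a probe set of their own on the array: 74 protein-coding genes and the 2 transcribed pseudogenes MGAT4EP and GCNT7. GALNT4 and GALNT8 had only probe sets shared with another gene and have no value here, and FUT10 and FUT11 are listed under the symbols POFUT3 and POFUT4. Total RNA of 2 established colorectal cancer cell lines, HCT116 and Caco-2, was measured on Affymetrix PrimeView arrays, whose probe sets read the 3′ part of transcripts. There were 4 arrays, 1 for each group: HCT116 with BORIS siRNA, Caco-2 with BORIS siRNA, HCT116 with negative siRNA and Caco-2 with negative siRNA. Cells were harvested 3 days after transfection with a lipid reagent in DMEM with serum. All groups are cancer cell cultures, the sequence of neither siRNA is given in the sources used here, and each siRNA was applied to each line once.

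BORIS, the product of CTCFL, is a germline paralog of CTCF that binds the same DNA motif, and the study compared silenced cells with their controls. The target was too dim on these arrays to show the silencing. The 7 CTCFL probe sets lay between 2.57 and 5.09 on the log2 scale, and a single one exceeded background in Caco-2 under either siRNA, with 5.09 for BORIS siRNA and 5.07 for negative siRNA. Background was set on each array at the 95th percentile of 368 probe sets of olfactory receptors, genes that these cells are not known to use. It lay at 5.15 and 5.09 on the HCT116 arrays with BORIS siRNA and negative siRNA, and at 4.80 and 5.05 on the Caco-2 arrays with BORIS siRNA and negative siRNA. A gene was called expressed in a line if it reached the median of all probe sets (5.46 to 5.48) on at least 1 of that line's arrays, which left 11165 genes. Of the 12 colorectal epithelial markers with a value, 10 were expressed in at least 1 line, and CDH17 and CDX1 were below background on all 4 arrays. VIL1, which encodes the brush border protein villin, was at 2.77 and 3.68 in HCT116 with BORIS siRNA and negative siRNA, below background, and at 9.33 and 9.57 in Caco-2 with BORIS siRNA and negative siRNA. The 10 expressed markers all differed between the lines in the test described below, with 3 higher in HCT116 (CDH1, CDX2 and KRT19) and 7 lower. Of 7 fibroblast markers, 0 were above background on any array. Markers of other cell types were not all dim. Expressed in at least 1 line were 2 of 5 blood markers (HBB and ITGAM) and 2 of 5 endothelial markers (VWF and TIE1). Of 4 neuronal markers, 3 were (SNAP25, RBFOX3 and SYT1), with SYT1 expressed in HCT116 only.

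Sugar chains on proteins begin in different ways. Mucin-type O-glycans start when a GALNT enzyme puts GalNAc on serine or threonine, and some of the GCNT enzymes add the branches. N-glycans arrive from the endoplasmic reticulum as a finished block that MGAT enzymes branch. B4GALT, B3GALT and B3GNT enzymes then lengthen the arms, and FUT and sialyltransferase enzymes cap them with fucose and sialic acid, which makes blood group and Lewis antigens such as sialyl Lewis x. In colorectal cancer some of the Lewis antigens are used as serum markers, and the intestinal epithelium is normally covered by heavily O-glycosylated mucins.

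Promoters of 6 members are shown, as the 250 bases before the annotated gene start in RefSeq (GRCh38.p14), read 5′ to 3′ along the gene. B3GNT7 and GALNT10 had the largest siRNA differences among expressed members of Caco-2 and HCT116 cells, and B3GALT2, FUT4 and GCNT3 were among the members with the largest differences between the lines. B4GALT5 was lower at 1.5-fold with BORIS siRNA in HCT116 and higher in HCT116 than in Caco-2. Capitals mark AGGNGGC on either strand, letters of the motif that CTCF and BORIS share. The windows are chr2:231395460-231395709 (plus strand), chr5:154190483-154190732 (plus strand), chr1:193186614-193186863 (minus strand), chr11:94543671-94543920 (plus strand), chr15:59611533-59611782 (plus strand) and chr20:49713879-49714128 (minus strand).
B3GNT7: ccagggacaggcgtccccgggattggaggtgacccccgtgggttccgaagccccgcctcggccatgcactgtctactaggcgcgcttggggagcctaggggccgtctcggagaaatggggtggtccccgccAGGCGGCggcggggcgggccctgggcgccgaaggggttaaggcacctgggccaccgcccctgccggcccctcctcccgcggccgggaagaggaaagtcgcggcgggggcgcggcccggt
GALNT10: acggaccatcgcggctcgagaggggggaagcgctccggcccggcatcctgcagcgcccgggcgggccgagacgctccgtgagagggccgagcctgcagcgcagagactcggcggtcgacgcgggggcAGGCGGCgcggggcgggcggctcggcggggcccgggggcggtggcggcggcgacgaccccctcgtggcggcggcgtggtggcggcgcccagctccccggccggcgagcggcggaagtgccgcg
B3GALT2: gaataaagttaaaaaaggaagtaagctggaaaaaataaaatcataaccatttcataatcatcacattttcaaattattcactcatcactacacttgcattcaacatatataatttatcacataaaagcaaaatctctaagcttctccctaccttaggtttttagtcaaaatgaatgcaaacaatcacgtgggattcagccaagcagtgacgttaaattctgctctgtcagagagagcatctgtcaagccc
FUT4: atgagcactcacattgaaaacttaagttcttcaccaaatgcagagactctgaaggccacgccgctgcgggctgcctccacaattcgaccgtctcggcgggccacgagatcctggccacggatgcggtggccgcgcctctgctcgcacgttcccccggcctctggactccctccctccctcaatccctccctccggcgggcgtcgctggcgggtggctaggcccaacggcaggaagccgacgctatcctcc
GCNT3: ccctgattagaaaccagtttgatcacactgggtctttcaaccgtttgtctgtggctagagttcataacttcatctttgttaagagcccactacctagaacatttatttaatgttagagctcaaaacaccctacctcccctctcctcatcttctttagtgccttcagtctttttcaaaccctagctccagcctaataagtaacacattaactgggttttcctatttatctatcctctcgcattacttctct
B4GALT5: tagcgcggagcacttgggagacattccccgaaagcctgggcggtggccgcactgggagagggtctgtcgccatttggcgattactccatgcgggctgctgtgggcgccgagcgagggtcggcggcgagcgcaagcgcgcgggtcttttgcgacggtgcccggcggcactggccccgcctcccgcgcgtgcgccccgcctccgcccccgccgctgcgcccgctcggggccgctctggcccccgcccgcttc

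The G and C content is 75.6% in B3GNT7 (28 CpG dinucleotides), 82.4% in GALNT10 (46), 65.2% in FUT4 (23) and 75.6% in B4GALT5 (37), against 33.6% in B3GALT2 and 40.4% in GCNT3 (2 in each). Members with large line differences are thus found on both sides. Of the 76 members, 59 were found in the promoter table by symbol. AGGNGGC stood in a window of 29 of these 59 (49.2%), against 35.4% of all 27305 genes with a window. CCGCCC, the GC box letters read by SP factors, stood in 47 of 59 members (79.7%), against 46.2% of all genes. TATAAA was found in 2 of 59 members (3.39%), against 13.0%, and TGANTCA, the AP-1 letters, in 4 of 59 (6.78%), against 8.06%. CAAAGTCCA, letters read by HNF4 factors, was found in 1 of 59 (1.69%), against 0.403%. All motifs were searched on both strands, and none of these shares was tested. The 59 members had 102 windows and the 27305 genes had 35116, so a member had more windows in which to match. Counted per window, AGGNGGC stood in 37.3% of the members' windows, against 31.5% of all, and CCGCCC in 55.9%, against 42.6%. The median G and C content of the members' windows was 65.6%, against 58.0% for all windows, and CCGCCC consists of G and C alone. A match in such a window describes its letters and not a bound site.

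Of the 76 members, 50 were expressed in at least 1 line: 38 in both, 7 in HCT116 only and 5 in Caco-2 only. On the probe set used for the gene, 42 members were above background on all 4 arrays, 14 on some and 20 on none. These 20 lay between 2.69 and 4.95. One of them, ST6GALNAC5, had another probe set above background on both HCT116 arrays (5.18 with BORIS siRNA and 5.62 with negative siRNA), so 19 members had no probe set above background on any array. Expressed members made up 13 of 18 O-GalNAc initiation genes, 3 of 6 O-glycan core and branching genes and 13 of 18 chain extension genes. Also expressed were both proteoglycan linker genes, 5 of 9 N-glycan branching genes, 5 of 9 fucosylation genes and 9 of 14 sialylation genes. The core and branching group was taken as B3GNT6 and all GCNT genes, with GCNT2 of the I antigen among them. All 7 B4GALT genes were expressed. MGAT5, the enzyme of the branch on N-glycans that many carcinomas carry more of, lay at 3.78 and 4.05 in HCT116 with BORIS siRNA and negative siRNA and at 4.06 and 4.09 in Caco-2 with BORIS siRNA and negative siRNA, all below background. MGAT3, which adds the bisecting GlcNAc, lay between 5.14 and 5.89 on the 4 arrays. A low value on an array can come from a poor probe set, so it does not show that the transcript was missing.

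**Figure D1:**
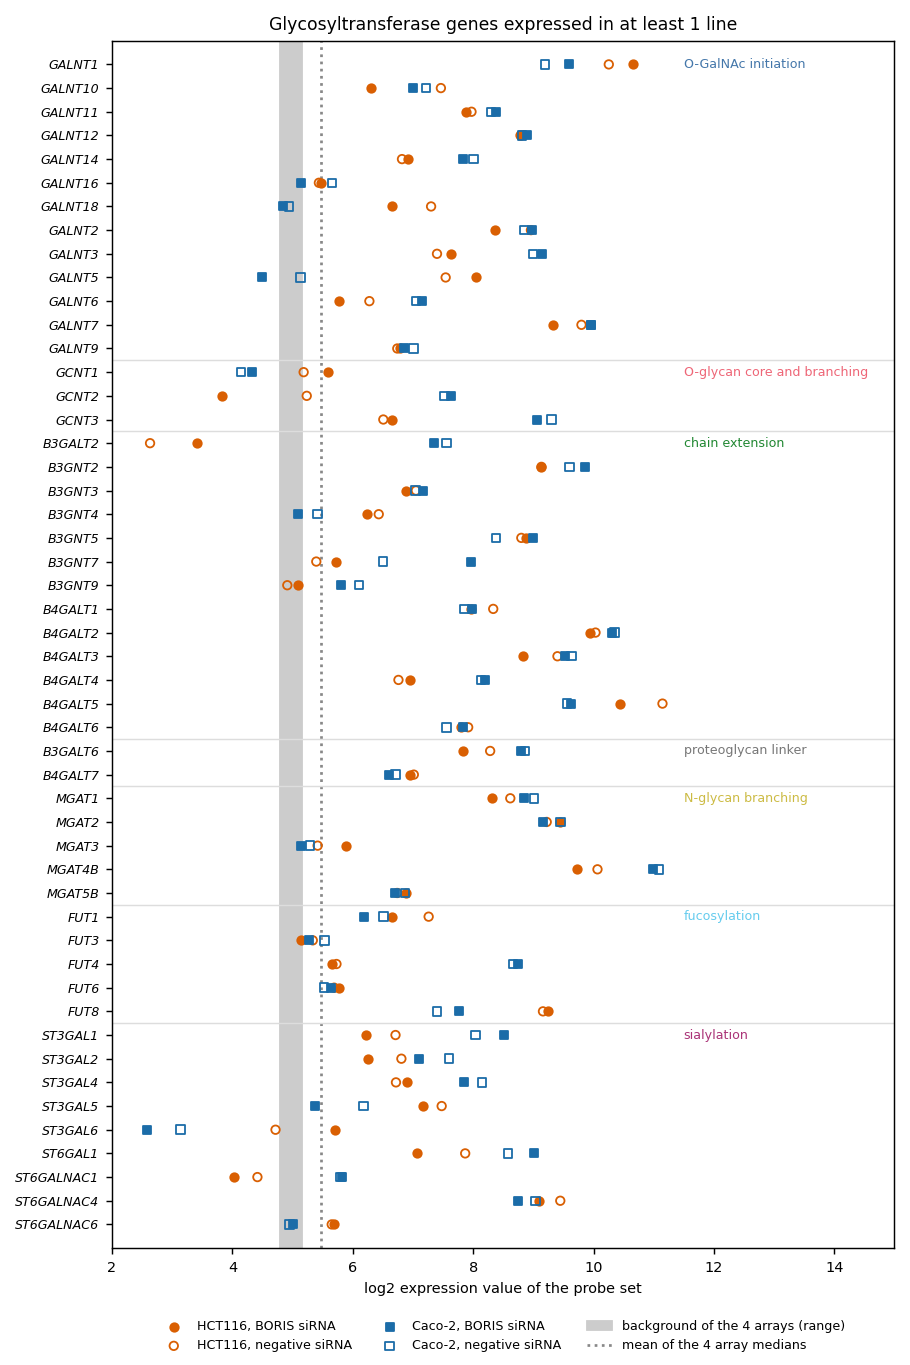
Deposited log2 values of the members expressed in at least 1 line, by role, on the 4 arrays (1 point per array and gene). Filled symbols are BORIS siRNA and open symbols negative siRNA, circles are HCT116 and squares Caco-2. The circles and squares of B3GALT2, GCNT2, GCNT3, FUT4 and GALNT5 lie far apart, at least 2 log2 units. Values of different genes come from different probes and are not to be ranked against each other.

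The median size of a member's difference was 0.80 on the log2 scale between the lines (50 members), 0.31 between siRNAs in HCT116 (45 members) and 0.17 between siRNAs in Caco-2 (43 members), against 0.43, 0.25 and 0.15 over all expressed genes. With values of the dimmer line raised to background, an alternative chosen after seeing the data, the median size between the lines was 0.63, against 0.42 over all genes tested. Between HCT116 and Caco-2, 28 of the 50 expressed members passed the test (56.0%; 39.2% of all 11165 genes tested did). Of these, 10 were higher in HCT116 (20% of members; 19.4% of all genes) and 18 were lower in HCT116 (36% of members; 19.8% of all genes). The test was limma with the siRNA as a block, on 2 arrays a line, with Benjamini-Hochberg adjustment over all genes at 0.05. The 12 members expressed in 1 line only were counted through the line where they were higher, so the 38 expressed in both are given apart. Of these 38, 19 passed (50%; 35.1% of the 9855 genes expressed in both lines), 5 higher and 14 lower in HCT116. By role these were 4 of 11 initiation genes, 1 of 1 branching gene, 4 of 10 chain extension genes, 1 of 2 linker genes, 1 of 4 MGAT genes, 3 of 4 FUT genes and 5 of 6 sialyltransferase genes. The median line difference of the 50 members was -0.20, against 0.01 for all genes. The 28 that passed had the same sign under both siRNAs. This is no separate evidence, because a gene with opposite signs could hardly pass this test. Of the 28, 20 were above background on all 4 arrays. With values of the dimmer line raised to background, 20 of the 28 differed at least 2-fold and 6 at least 4-fold. For 17 of them more than 1 probe set was above background, and in these 17 all such probe sets had the same sign. Arrays of 1 line and 1 siRNA are not repeated. The spread behind these p-values and SEs comes in part from how a gene's line difference varies between siRNAs (1 residual degree of freedom). More weight goes to the trend that limma fits over all genes (5.487 prior degrees of freedom). These p-values say nothing of other cultures of either line. In RNA from whole cultures, fewer cells that use a gene and less RNA of it per cell cannot be told apart.

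**Figure D2:**
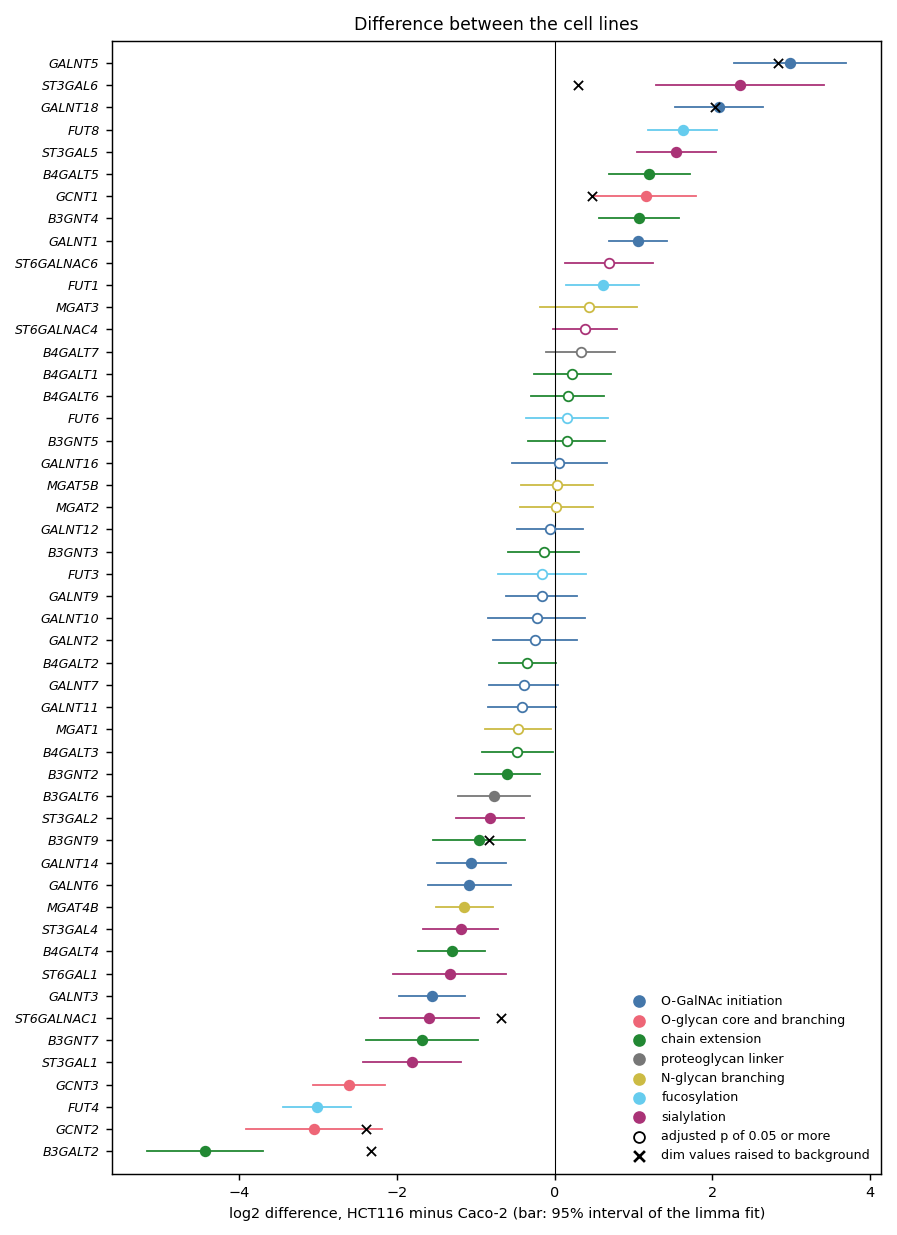
Log2 difference between HCT116 and Caco-2 for each expressed member, with its 95% interval from limma, by role. Filled points passed the test, open points did not, and crosses show the difference with values of the dimmer line raised to background. Among members above background on all 4 arrays, the lower ones in HCT116 reach -3.01 (FUT4). The fitted -4.43 of B3GALT2 shrinks to -2.33 and the fitted 2.35 of ST3GAL6 to 0.29 at the crosses. The other 22 have intervals that lie between -0.93 and 1.25.

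Among the 13 expressed genes that start mucin-type O-glycans, 3 were higher in HCT116 and 3 lower (46.2% passed, against 39.2% of all genes tested). GALNT5 and GALNT18 were expressed in HCT116 only and so were counted through the line where they were higher. Of the 11 expressed in both lines 4 passed, 1 higher and 3 lower (35.1% of all genes expressed in both lines passed). GALNT5 lay at 8.05 in HCT116 and 4.49 in Caco-2 with BORIS siRNA, and at 7.54 in HCT116 and 5.13 in Caco-2 with negative siRNA. Both HCT116 values stood well above both Caco-2 values, of which only the one with negative siRNA was above background, and the difference was 2.99 ± 0.30 (SE, n = 2 a line, limma adjusted p = 0.000581), or 2.83 with the dim value raised to background. GALNT18 lay at 6.65 in HCT116 and 4.83 in Caco-2 with BORIS siRNA, and at 7.30 in HCT116 and 4.94 in Caco-2 with negative siRNA. Its Caco-2 values were close to background, and the difference was 2.09 ± 0.23 (SE, limma adjusted p = 0.000932), or 2.03 with the dim value raised to background. GALNT1, a widely expressed enzyme of this step, lay at 10.65 in HCT116 and 9.60 in Caco-2 with BORIS siRNA, and at 10.25 in HCT116 and 9.19 in Caco-2 with negative siRNA. Its HCT116 values were higher under both siRNAs, by 1.06 ± 0.15 (SE, limma adjusted p = 0.0028). In the other direction, GALNT3, known for glycosylating the hormone FGF23 and so protecting it from cleavage, lay at 7.62 in HCT116 and 9.14 in Caco-2 with BORIS siRNA, and at 7.40 in HCT116 and 8.99 in Caco-2 with negative siRNA. All of its HCT116 values were below its Caco-2 values, with a difference of -1.55 ± 0.17 (SE, limma adjusted p = 0.001). GALNT6 differed by -1.08 and GALNT14 by -1.05. GALNT2, GALNT7, GALNT10, GALNT11 and GALNT12 were expressed in both lines and did not pass the test.

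All 3 expressed GCNT genes passed the line test (39.2% of all genes tested did), and only GCNT3 of them was expressed in both lines. GCNT3, the mucin-type enzyme of core 2 and core 4 branches in the gut, lay at 6.65 in HCT116 and 9.06 in Caco-2 with BORIS siRNA, and at 6.51 in HCT116 and 9.30 in Caco-2 with negative siRNA. It was lower in HCT116 by a log2 difference of -2.60 ± 0.19 (SE, limma adjusted p = 0.000158), and this is read from 1 probe set. GCNT2, which makes the branched blood group I antigen, lay at 3.83 in HCT116 and 7.63 in Caco-2 with BORIS siRNA, and at 5.23 in HCT116 and 7.52 in Caco-2 with negative siRNA. Its HCT116 value with BORIS siRNA was below background. The fitted difference was -3.05 ± 0.36 (SE, limma adjusted p = 0.00124) and came to -2.39 with that value raised to background, with the same sign in 3 of 3 probe sets above background on any array. Every HCT116 value of both genes was at least 2 log2 units under every Caco-2 value. GCNT1, the leukocyte-type core 2 enzyme, ran the other way and lay at 5.60 in HCT116 and 4.33 in Caco-2 with BORIS siRNA, and at 5.18 in HCT116 and 4.14 in Caco-2 with negative siRNA, below background in Caco-2. Set against that background it was at least 1.38-fold higher in HCT116 (limma adjusted p = 0.0153).

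Of the 13 expressed chain extension genes, 2 were higher in HCT116 and 5 lower (53.8% passed, against 39.2% of all genes tested). Among these, B3GNT4, B3GALT2 and B3GNT9 were expressed in 1 line only and so were counted through the line where they were higher. Of the 10 expressed in both lines 4 passed, 1 higher and 3 lower (35.1% of all genes expressed in both lines passed). B3GALT2, which adds galactose to GlcNAc, lay at 3.41 in HCT116 and 7.35 in Caco-2 with BORIS siRNA, and at 2.63 in HCT116 and 7.56 in Caco-2 with negative siRNA, below background in HCT116. The gene was therefore at least 5.03-fold lower in HCT116, with a fitted difference of -4.43 ± 0.31 (SE, limma adjusted p = 0.000119) on its only probe set. B4GALT4, a galactosyltransferase, lay at 6.95 in HCT116 and 8.19 in Caco-2 with BORIS siRNA, and at 6.76 in HCT116 and 8.13 in Caco-2 with negative siRNA, a difference of -1.30 ± 0.18 (SE, limma adjusted p = 0.00211). B3GNT7, an extender of sulfated N-acetyllactosamine chains, lay at 5.72 in HCT116 and 7.97 in Caco-2 with BORIS siRNA, and at 5.39 in HCT116 and 6.50 in Caco-2 with negative siRNA. The difference was -1.68 ± 0.29 (SE, limma adjusted p = 0.00557), and within the siRNAs it was -2.25 with BORIS siRNA and -1.11 with negative siRNA, since the Caco-2 values of B3GNT7 were themselves spread. B4GALT5, a lactosylceramide synthase, lay at 10.44 in HCT116 and 9.62 in Caco-2 with BORIS siRNA, and at 11.15 in HCT116 and 9.56 in Caco-2 with negative siRNA. Its HCT116 values were higher by 1.20 ± 0.21 (SE, limma adjusted p = 0.00593), and without probe sets that can bind several transcripts the difference was 0.32 and did not pass. B3GNT4 was higher in HCT116 by 1.08, B3GNT2, a main extender of polylactosamine, had a difference of -0.60, and B3GNT9, below background in HCT116, was at least 1.78-fold lower there. Of the proteoglycan linker genes, B3GALT6 differed by -0.77 and was lower in HCT116, and B4GALT7 differed by 0.33 and did not pass.

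On N-glycans, MGAT4B, which adds a GlcNAc branch, was the only one of 5 expressed MGAT genes that passed (20%, against 39.2% of all genes tested). It lay at 9.72 in HCT116 and 10.99 in Caco-2 with BORIS siRNA, and at 10.07 in HCT116 and 11.08 in Caco-2 with negative siRNA. The difference was -1.15 ± 0.15 (SE, limma adjusted p = 0.00188), with the same sign in 4 of 4 probe sets above background. MGAT1, the enzyme that opens the way to complex N-glycans, differed by -0.46 and MGAT2, which acts after it, by 0.02, and neither passed. The 22 members of all roles that did not pass had 95% intervals between -0.93 and 1.25, so a 2-fold line difference is inside the range these arrays allow for some of them.

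Of the 5 expressed FUT genes, 2 were higher and 1 lower in HCT116 (60% passed, against 39.2% of all genes tested). FUT4, an enzyme of Lewis x, lay at 5.66 in HCT116 and 8.74 in Caco-2 with BORIS siRNA, and at 5.73 in HCT116 and 8.66 in Caco-2 with negative siRNA. The difference was -3.01 ± 0.18 (SE, limma adjusted p = 6.88e-05), and both of its probe sets above background were lower in HCT116. Both are of the kind that can bind several transcripts, so FUT4 has no value without such probe sets. FUT8, which adds the core fucose of N-glycans, lay at 9.25 in HCT116 and 7.76 in Caco-2 with BORIS siRNA, and at 9.16 in HCT116 and 7.40 in Caco-2 with negative siRNA. It was higher in HCT116 by 1.62 ± 0.18 (SE, limma adjusted p = 0.000996). FUT1, which makes the H antigen, lay at 6.66 in HCT116 and 6.18 in Caco-2 with BORIS siRNA, and at 7.26 in HCT116 and 6.51 in Caco-2 with negative siRNA. Its difference of 0.61 ± 0.19 (SE, limma adjusted p = 0.0447) was close to the threshold and was no longer called when all genes on the array were tested. FUT3, the Lewis gene, and FUT6 differed by -0.16 and 0.15 and did not pass. FUT3, FUT5 and FUT6 are near-identical copies, so their separate values are uncertain. The values of FUT5 and FUT6, though not that of FUT3, come from probe sets of the kind that can bind several transcripts.

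Of the 9 expressed sialyltransferase genes, 7 passed (77.8%, against 39.2% of all genes tested), 2 higher and 5 lower in HCT116. All 5 expressed ST3GAL genes were among these 7. ST3GAL6 and ST6GALNAC1 were expressed in 1 line only and so were counted through the line where they were higher. Of the 6 expressed in both lines 5 passed, 1 higher and 4 lower (35.1% of all genes expressed in both lines passed). ST3GAL1, which caps the core 1 O-glycan, lay at 6.22 in HCT116 and 8.52 in Caco-2 with BORIS siRNA, and at 6.71 in HCT116 and 8.04 in Caco-2 with negative siRNA. The difference was -1.81 ± 0.26 (SE, limma adjusted p = 0.00254), with the same sign in 4 of 4 probe sets above background. ST6GAL1, which puts the terminal sialic acid on N-glycans, lay at 7.07 in HCT116 and 9.01 in Caco-2 with BORIS siRNA, and at 7.87 in HCT116 and 8.58 in Caco-2 with negative siRNA. It differed by -1.33 ± 0.30 (SE, limma adjusted p = 0.0141), and the line difference was wider with BORIS siRNA (-1.94) than with negative siRNA (-0.71). ST3GAL4 differed by -1.19 and ST3GAL2 by -0.82. Both values come from probe sets of the kind that can bind several transcripts. Other probe sets gave -2.03 and -2.10 for ST3GAL4, and -1.15 and -0.72 for ST3GAL2. ST6GALNAC1, the sialyl-Tn synthase, lay at 4.03 in HCT116 and 5.82 in Caco-2 with BORIS siRNA, and at 4.42 in HCT116 and 5.80 in Caco-2 with negative siRNA, below background in HCT116, so it was at least 1.61-fold lower there (limma adjusted p = 0.00448). ST3GAL5, the synthase of the ganglioside GM3, lay at 7.17 in HCT116 and 5.38 in Caco-2 with BORIS siRNA, and at 7.48 in HCT116 and 6.18 in Caco-2 with negative siRNA. It was higher in HCT116 by 1.55 ± 0.21 (SE, limma adjusted p = 0.00211). ST3GAL6, which caps chains that carry sialyl Lewis x, lay at 5.71 in HCT116 and 2.58 in Caco-2 with BORIS siRNA, and at 4.72 in HCT116 and 3.14 in Caco-2 with negative siRNA. It was above background on 1 array only, HCT116 with BORIS siRNA. The fitted difference was 2.35 (limma adjusted p = 0.00744) and came to 0.29 with the Caco-2 values raised to background. Neither is a lower bound, because the HCT116 value with negative siRNA was also below background. The line difference of ST3GAL6 thus rests on 1 array. ST6GALNAC4 and ST6GALNAC6 differed by 0.38 and 0.69 and did not pass.

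With BORIS siRNA, HCT116 cells had 45 expressed members, of which 19 were higher and 26 lower than with negative siRNA (57.8% lower; 55.4% of the 10631 expressed genes were). With 1 array a group there is no replicate check and no test, so the counts below are past a fold and not past a test. At 2-fold, 0 members were higher (0.583% of all expressed genes) and 1 was lower (1.45% of all expressed genes). At 1.5-fold, 1 was higher (4.36% of all) and 6 were lower (9.18% of all). After quantile normalization of the 4 arrays these were 2 higher and 3 lower. The members' median difference was -0.07, against -0.05 for all expressed genes, and the members' counts are close to what the shares of all genes would give among 45. Poly-A control RNAs, which are added before labelling, averaged 8.44 with BORIS siRNA and 7.57 with negative siRNA in HCT116 (a difference of 0.87), against 6.71 with BORIS siRNA and 6.78 with negative siRNA in Caco-2 (a difference of -0.07), and their part in the results was not tested.

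GALNT10, an enzyme that prefers peptides already carrying GalNAc, was the member at 2-fold: its only probe set read 6.31 with BORIS siRNA and 7.46 with negative siRNA in HCT116, a difference of -1.16. In Caco-2 it read 7.01 with BORIS siRNA and 7.22 with negative siRNA. The HCT116 value with BORIS siRNA was the lowest of its 4 arrays. ST6GAL1 read 7.07 with BORIS siRNA and 7.87 with negative siRNA in HCT116. The other 4 members lower at 1.5-fold were B4GALT5, with a difference of -0.71, GALNT18 with -0.65, FUT1 with -0.60 and GALNT2 with -0.59. All 4 probe sets of GALNT2 above background were lower. All 3 probe sets of B4GALT5 above background were lower, and both of ST6GAL1. Leaving out probe sets that other transcripts may share brought B4GALT5 to -0.23, and the mean over all probe sets of the gene brought ST6GAL1 to -0.43 and FUT1 to -0.16. The middle 95% of all expressed genes in HCT116 lay between -0.89 and 0.72, which holds all of these except GALNT10.

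The member higher at 1.5-fold in HCT116 was ST3GAL6, at 5.71 with BORIS siRNA and 4.72 with negative siRNA. The second value is below background, so it was at least 1.53-fold higher. GCNT2 was not expressed in HCT116, yet its brightest probe set read 3.83 with BORIS siRNA and 5.23 with negative siRNA. Set against background that difference was -0.08, and its other 4 probe sets were 0.05 to 0.85 higher with BORIS siRNA, all below background. By role, the 11 chain extension genes expressed in HCT116 had a median of -0.11, with 8 lower, and 6 of the 7 B4GALT genes were lower, all but B4GALT4. Over all expressed genes in HCT116, 55.4% were lower. The 8 sialylation genes had a median of -0.33, with 5 lower, and the 13 initiation genes one of -0.02.

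In Caco-2 cells, 43 members were expressed, 21 higher and 22 lower with BORIS siRNA (of the 10389 expressed genes, 50.5% were higher and 49.4% lower). At 2-fold, 1 was higher (0.404% of all expressed genes) and 0 were lower (0.0481% of all). At 1.5-fold, 2 were higher (2.78% of all) and 1 was lower (1.14% of all). The median difference was -0.002 for the members and 0.003 for all expressed genes.

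B3GNT7 was the member at 2-fold in Caco-2. It read 7.97 with BORIS siRNA and 6.50 with negative siRNA, a difference of 1.47 and the largest siRNA difference of any expressed member in either line. In HCT116 it read 5.72 with BORIS siRNA and 5.39 with negative siRNA, so both lines were higher, by unequal amounts. Its second probe set was below background and differed by 0.22 in Caco-2, and the mean of both gave 0.84, under 2-fold. B3GNT5, which makes the lacto-series glycolipid core, read 8.99 with BORIS siRNA and 8.38 with negative siRNA in Caco-2. The difference of 0.61 came to 0.43 as the mean over its probe sets, and in HCT116 it was 0.08. ST3GAL5 read 5.38 with BORIS siRNA and 6.18 with negative siRNA in Caco-2, a difference of -0.80, against -0.31 in HCT116 and -0.46 in Caco-2 over all its probe sets. Of the 5 B3GNT genes expressed in Caco-2, 4 were higher with BORIS siRNA, and all 4 expressed MGAT genes were lower, by a median of -0.17. Over all expressed genes in Caco-2, 50.5% were higher and 49.4% lower. The middle 95% of all expressed genes in Caco-2 lay between -0.47 and 0.61.

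**Figure D3:**
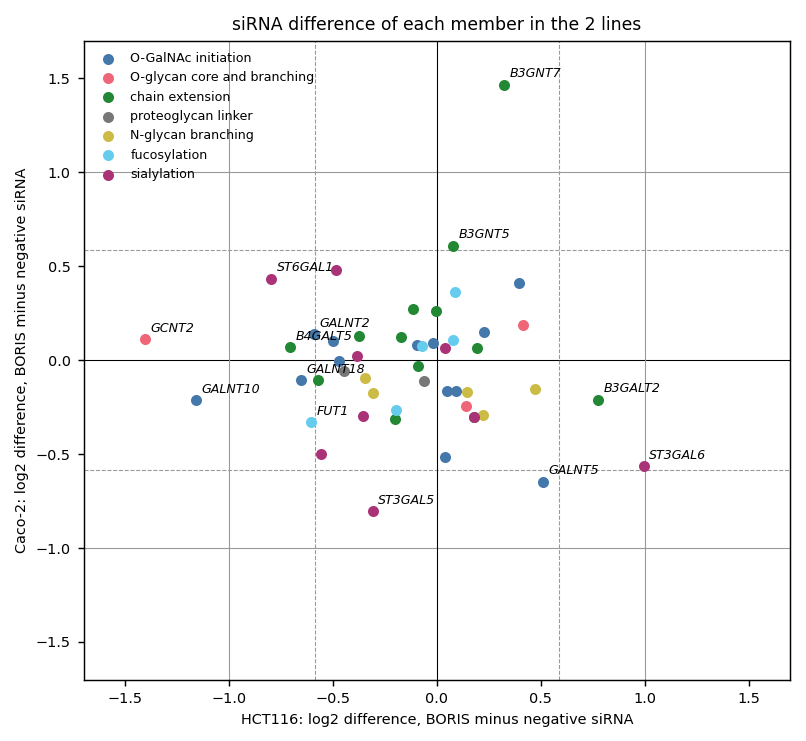
Log2 difference of BORIS siRNA minus negative siRNA in HCT116 (x axis) and Caco-2 (y axis) for each member expressed in at least 1 line, 1 array a group, coloured by role. B3GNT7 stands highest, at 1.47 in Caco-2. GCNT2 (-1.41, not expressed in HCT116) and GALNT10 (-1.16) lie farthest left. Labelled members are past 1.5-fold on an axis, marked by dashed lines, and grey lines mark 2-fold. B3GALT2, GALNT5, GALNT18, GCNT2 and ST3GAL6 are labelled although they were not expressed in 1 of the lines.

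The siRNA differences had the same sign in both lines in 19 of 38 members. Of the 38 members expressed in both lines, 7 were higher in both, 12 lower in both, 7 higher in HCT116 and lower in Caco-2, and 12 lower in HCT116 and higher in Caco-2 (31.6%; 25.8% of the 9855 genes expressed in both). At 1.5-fold, 0 members differed the same way in both lines and 0 differed in opposite ways. ST6GAL1 differed by -0.80 in HCT116 and 0.43 in Caco-2, and ST3GAL1 by -0.49 in HCT116 and 0.48 in Caco-2. GALNT1 was the most even, with differences of 0.40 in HCT116 and 0.41 in Caco-2, and all 4 of its probe sets above background were higher in both lines. ST3GAL2 differed by -0.56 in HCT116 and -0.50 in Caco-2. When both lines were fitted together with limma, with the line as a block, 0 of 50 members and 0 of 11165 genes passed (0.0%), and the smallest adjusted p of a member was 0.769. At an unadjusted p under 0.05 there were 6 members (12%; 6.0% of all genes). These were B3GNT7 (0.90 ± 0.29, SE), GALNT1 (0.40 ± 0.15), ST3GAL2 (-0.53 ± 0.18), GALNT10 (-0.69 ± 0.26), ST3GAL5 (-0.56 ± 0.21) and FUT1 (-0.47 ± 0.19). B3GNT7 passed in limma after quantile normalization (adjusted p = 0.0374, among 82 genes) and after cyclic loess normalization (adjusted p = 0.0126, among 101 genes), with adjusted p between 0.0126 and 0.867 over the alternatives.

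**Figure D4:**
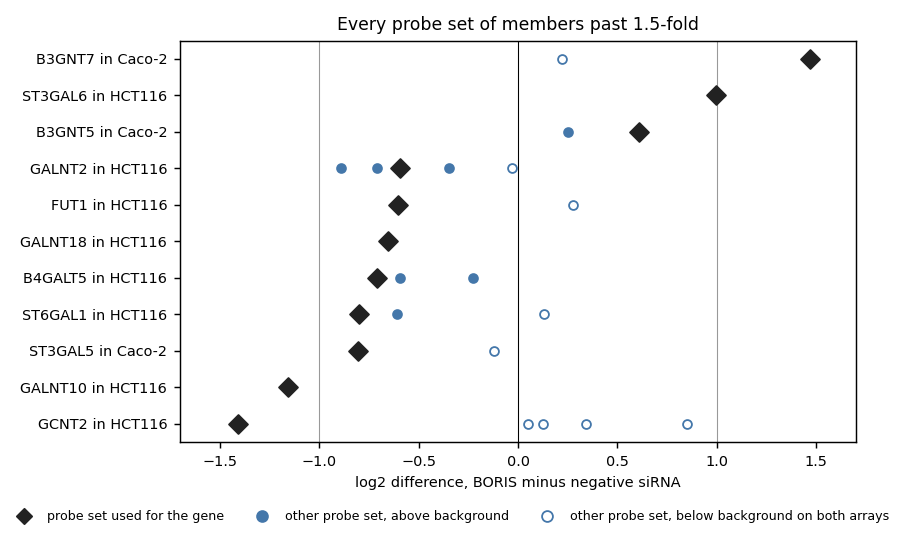
Log2 differences of BORIS siRNA minus negative siRNA (x axis) for every probe set of the members past 1.5-fold in a line (rows). Diamonds are the probe sets used for the gene, filled circles other probe sets above background and open circles those below it on both arrays. The 4 open circles of GCNT2 lie at 0.05 to 0.85 while its diamond lies at -1.41, and ST3GAL6, GALNT18 and GALNT10 rest on 1 probe set.

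Genes that supply or share the pathway were counted the same way, from lists chosen with results of these data known. Over all genes tested, 19.4% were higher and 19.8% lower in HCT116 than in Caco-2. With BORIS siRNA at 1.5-fold, 4.36% of all expressed genes were higher and 9.18% lower in HCT116. In Caco-2 these shares were 2.78% and 1.14%. Of 9 expressed nucleotide sugar transporter genes (10 had a value), which carry activated sugars into the Golgi, 0 were higher in HCT116 than in Caco-2 and 1 was lower, SLC35A4 (-0.77). SLC35A1, the carrier of CMP-sialic acid, was higher by 0.88 with BORIS siRNA in HCT116 and SLC35A4 differed by -0.60, the only 2 of this list past 1.5-fold in HCT116, with 0 in Caco-2. Among 21 genes of nucleotide sugar synthesis, all expressed, 3 were higher and 6 lower in HCT116 than in Caco-2, with GALK2 at -1.48. That is 42.9% of the list past the test, against 39.2% of all genes tested. With BORIS siRNA, FPGT, which makes GDP-fucose from salvaged fucose, was higher by 0.97 in HCT116, the only one past 1.5-fold in either line. In Caco-2, 15 of these 21 were lower with BORIS siRNA (71.4%, against 49.4% of all expressed genes), and the median of the 21 was -0.09. Other glycan-processing enzymes had 16 expressed genes of 28, 4 higher and 3 lower in HCT116 than in Caco-2 (2 and 2 among the 12 expressed in both lines), among them the mannosidase genes MAN1A1 (2.87) and MAN2A1 (-2.82). With BORIS siRNA, XYLT1, which starts proteoglycan chains, differed by -0.72 in HCT116. C1GALT1, the core 1 synthase that acts directly after the GALNT step, was higher by 0.59 in HCT116 and 0.35 in Caco-2.

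Glycan sulfotransferases had 10 expressed genes (19 had a value). Of these, 5 were higher in HCT116 than in Caco-2 (50%, against 19.4% of all genes tested) and 0 were lower (19.8% of all). Of these 5, 4 were expressed in HCT116 only and so were counted through the line where they were higher. Of the 5 expressed in both lines 1 passed, CHST7. CHST15 led them with a fitted difference of 3.90 (2.67 when set against background in Caco-2, where it was dim). With BORIS siRNA, 3 were lower at 1.5-fold in HCT116 (CHST6 with a difference of -1.18, CHST3 with -0.80 and CHST11 with -0.70), and 0 in Caco-2. CHST6 was below background with BORIS siRNA. Mucins, the main carriers of O-glycans in the gut, had 4 expressed genes of 13 with a value. Of these 4, 3 were lower in HCT116 than in Caco-2 (75%, against 19.8% of all genes tested). All 3 were expressed in Caco-2 only and so were counted through the line where they were higher. MUC1, expressed in both lines, did not pass. MUC13, a transmembrane mucin, was below background in HCT116 and had a fitted line difference of -3.78 (-3.13 against background), and it differed by -0.86 with BORIS siRNA in Caco-2. Of 19 expressed genes (21 had a value) of Golgi structure and trafficking, 4 were higher and 4 lower in HCT116 than in Caco-2. That is 42.1% past the test, against 39.2% of all genes tested. With BORIS siRNA, 0 of the 19 were past 1.5-fold in either line.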

How the data were processed

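On the 4 PrimeView arrays, each probe set has a log2 value as the authors deposited it, between 2.13 and 14.17. How the authors corrected background, normalized and summarised probes is a step not given in the sources used here, and the scale was inferred from the values. RNA was extracted with TRIzol and labelled with biotin by a 3' in vitro transcription kit, per the labels' protocols.

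Gene names came from the annotation of the platform: 44988 of 49395 probe sets carried a single gene, 1832 carried several and 2569 had no entry. A gene took its brightest probe set among those paired with it alone, by the mean of the 4 arrays. Members had 201 probe sets, 19 members had 1, and 18 were represented by a probe set of the kind that can bind several transcripts. The line and shared siRNA differences were fitted on 4 arrays with R 4.3.3 and limma 3.58.1, by lmFit followed by eBayes (trend on), with siRNA and line as terms, which leaves 1 residual degree of freedom, with Benjamini-Hochberg adjustment over 11165 genes. The labels name no separate cultures, so p-values rest on the spread between these arrays, moderated by eBayes over all genes tested. A fold written as at least a value was taken against the background of the dim arrays. The fit was tested on simulated data in which 200 of 11165 genes were changed. The share of false calls was 10% in the line test and 8.7% in the shared test, both above the nominal threshold of 0.05. In the data the line test called 4373 genes, so the simulated setting was unlike the data in this respect.

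Members, lists and rules were chosen with earlier results of these data known. The rule named members past 2-fold with BORIS siRNA in a line, past 1.5-fold in both lines (0 members), among the 10 largest line differences in a direction, or brightest, highest, lowest or median in a family. Members past 1.5-fold in 1 line only, and the others named, were added after their values were seen. Promoters come from RefSeq (GRCh38.p14), and no protein sequence was used. Alternatives were the filter, the choice of probe set, 2 other normalizations, 16 added to the linear values, values raised to background, and eBayes without trend.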

Additional observations from a re-analysis of the deposited data

Results flagged for a closer look

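B4GALNT1, the synthase of the gangliosides GM2 and GD2 and not one of the 76 genes, was past 1.5-fold in opposite directions in the lines. It was higher with BORIS siRNA by a log2 difference of 0.738 in HCT116 and lower by a difference of -0.5898 in Caco-2. Each line has 1 array a group, and the difference between the lines was not tested.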

How the results depend on the processing

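Each group holds 1 array and the labels give no replicate numbers. The line fit pairs the arrays by siRNA and the shared fit pairs them by line, each taken as a block. The line calls held best: over the alternatives 7 to 12 members were higher and 15 to 19 lower in HCT116, and all 28 remained called with the olfactory receptor limit as the filter, after quantile and cyclic loess normalization, with 16 added and without trend, 26 with no filter, 24 with the mean of all probe sets and 24 without probe sets that can bind several transcripts. The counts with BORIS siRNA in HCT116 varied more. At 2-fold, quantile normalization gave 1 higher member, and no filter or the olfactory receptor limit gave 2 lower members, GCNT2 being the added one. At 1.5-fold, no filter gave 3 higher and quantile normalization 2, while the lower count was 2 with the mean of all probe sets, 3 after quantile normalization and 3 with 16 added. In Caco-2, the mean of all probe sets gave 0 higher at 2-fold and 0 lower at 1.5-fold. There, no filter and the olfactory receptor limit both gave 4 higher and 2 lower at 1.5-fold, and quantile normalization gave 1 higher. The Caco-2 median was 0.023 with the mean of all probe sets, 0.024 without shared probe sets and 0.015 after cyclic loess. The shared test called 1 member after quantile and 1 after cyclic loess normalization, B3GNT7. GCNT2 reversed in HCT116, to 0.12, without probe sets that can bind several transcripts. The cause of these changes was not tested. Among single members' values, 276 kept their direction and call, 20 no longer passed the threshold and 1 reversed. Raising dim values of a line to background moved 5 line differences by more than their SE (B3GALT2, GCNT2, GCNT1, ST3GAL6 and ST6GALNAC1). The number of arrays limits all differences with BORIS siRNA.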
